A study of Arabidopsis thaliana with 18 samples.

Results

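LHCB4.1, LHCB4.2 and LHCB4.3 are the Arabidopsis genes for CP29, a minor chlorophyll-binding antenna protein of photosystem II. Their loci are AT5G01530 for LHCB4.1, AT3G08940 for LHCB4.2 and AT2G40100 for LHCB4.3. Each gene has 1 probe set on the Affymetrix array, so they are 3 of the 22746 probe sets tested and are grouped by gene family. The plants were Arabidopsis thaliana of the wild-type accession Col-0. They were 5 to 6 weeks old, and the whole rosettes of 15 of them were pooled for each RNA sample. Rosettes were frozen at 0, 4, 8, 12, 16 and 20 h, with 3 arrays per time, and the groups differ only in that time. The 3 courses, called series A, B and C after the replicate letters, were grown separately, so each holds 1 array per time. The labels give no treatment and do not say when the light came on, so times are only as labelled. A rosette holds many cell types, and fewer cells of a type cannot be told apart from less RNA per cell.

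Photosystem II uses light to split water, and its antenna proteins gather that light with chlorophyll and carotenoids. CP29 is a monomeric antenna protein that sits between the photosystem core and the large trimeric light-harvesting complex, and it is also known for a role in shedding excess energy as heat. LHCB4.1 and LHCB4.2 encode closely related forms, and LHCB4.3 encodes a divergent form known to accumulate in strong light. Since LHCB4.1 and LHCB4.2 are close copies, RNA of one may bind probes of the other. Probe sequences were not used here, and this was not tested.

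Arrays of series B stood apart. Over all 22746 probe sets, 4 of its 6 arrays correlated better with series A and C arrays of another time than with those of their labelled time. These were the arrays labelled 4 h (best with 16 h), 8 h (best with 12 h), 12 h (best with 8 h) and 16 h (best with 4 h), with mean correlations of 0.945 to 0.959 for the labelled time and 0.963 to 0.967 for the best one. The 0 h and 20 h arrays of series B, and all arrays of series A and C set against each other, correlated best with their own time. Whether these labels follow the order of sampling was not tested. The time tests of the LHCB4 genes are therefore given with all 18 arrays, without the 4 h and 16 h arrays of series B, and for series A and C alone, and correlations by series. Leaving out arrays that matched series A and C less well at their labelled time favours calls of a time course. Calls without them, pair tests included, are thus not independent of that choice. As markers of the tissue, the leaf gene RCA for rubisco activase had signals of 2817 to 7780 over the 18 arrays, and the root genes PYK10 and EXPA7 had 127.4 to 266.1 and 1.7 to 19.2. Array medians were 32.2 to 39.8, so of the root genes PYK10 lay above the median on every array and EXPA7 below it. Signals of different probe sets do not measure relative amounts of RNA.

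LHCB4.2 was high at 0 to 8 h and low at 16 h in series A and C, with the opposite course in the middle of series B. In series A its signal was 3647 at 0 h, 3680 at 4 h, 3921 at 8 h, 2004 at 12 h, 970.4 at 16 h and 3115 at 20 h. In series C it was 5712, 5826, 3903, 1560, 831.7 and 2863 at the same times. In both series the 3 lowest signals were those of 16, 12 and 20 h, in that order, and the 20 h array was back well above the 16 h array. The highest signal exceeded the lowest by 4.04 times in series A and by 7.0 times in series C.

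Series B gave LHCB4.2 signals of 3770 at 0 h, 1123 at 4 h, 1779 at 8 h, 3844 at 12 h, 4016 at 16 h and 3068 at 20 h. Its lowest array was thus the one labelled 4 h and its highest the one labelled 16 h, the times of the highest and the lowest array in series C. At 0 h and 20 h the signals of series B lay between those of series A and C.

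**Figure D1:**
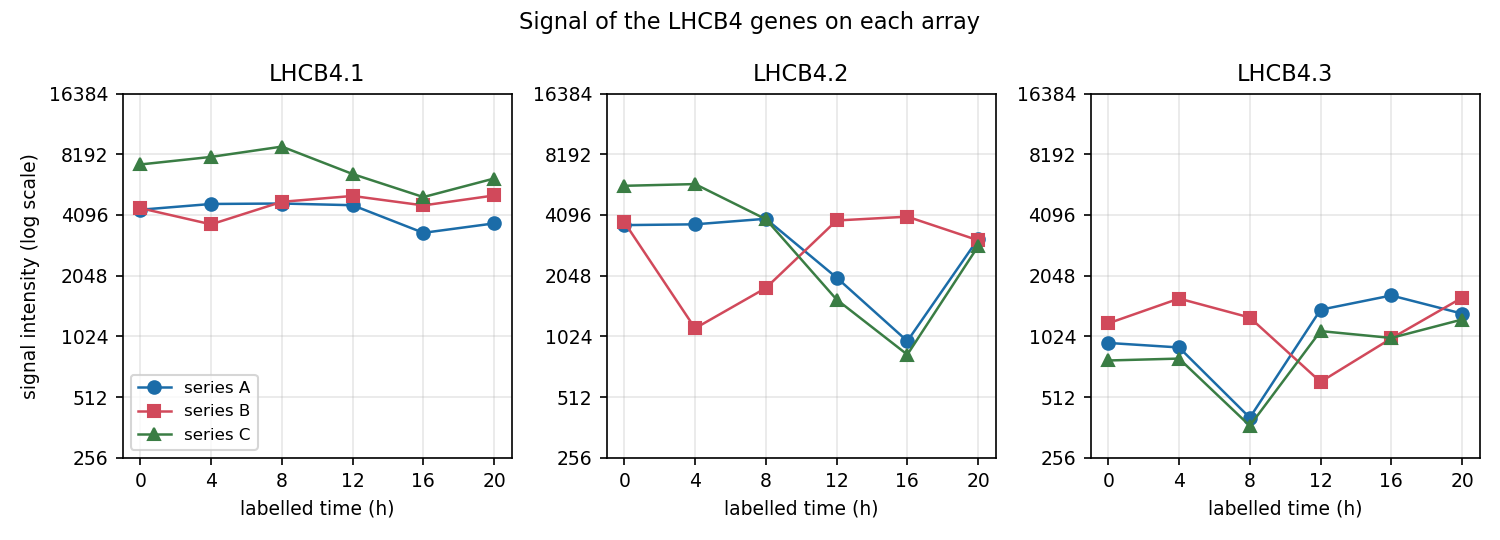
Signal intensity (log scale) of LHCB4.1, LHCB4.2 and LHCB4.3 against labelled time in h, with 1 point per array and 1 line per series. For LHCB4.2, series A and C are lowest at 16 h (970.4 and 831.7) and series B at 4 h (1123), and for LHCB4.3, series A and C are lowest at 8 h (404.8 and 369.2) and series B at 12 h (609.2).

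As a mean over the 3 series, LHCB4.2 was 4376 ± 1158 at 0 h, 3543 ± 2355 at 4 h, 3201 ± 1231 at 8 h, 3015 ± 134 at 20 h, 2469 ± 1211 at 12 h and 1940 ± 1800 at 16 h (SD, n = 3 arrays each). No neighbours in this order differed by more than the larger of their SDs, and the SD was smallest at 20 h. With all 18 arrays the gene passed neither test over the course. Its time means ranged over 1.53 on the log2 scale (F test in limma, adjusted p = 0.731, unadjusted p = 0.246), in a test that 6.53% of probe sets passed. A 24 h cosine gave a peak-to-trough difference of 1.08 (limma F test, adjusted p = 0.346), a test that 12.5% of probe sets passed.

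Without the 4 h and 16 h arrays of series B, LHCB4.2 passed the cosine test (limma adjusted p = 0.00765), its fitted curve spanning 1.81 from peak to trough with the peak at 2.88 ± 0.77 h (SE). This test called 17.7% of probe sets in that setting. The gene passed the F test as well (limma adjusted p = 0.0085), with 12% of probe sets called. For series A and C alone the time means ranged over 2.36 (limma F test, adjusted p = 0.00232), with 9.18% of probe sets called. There the cosine had a peak-to-trough difference of 2.23 and a fitted peak at 3.02 ± 0.57 h (SE, limma adjusted p = 0.00176), with 13.3% called. Fitted to 1 series at a time, the peak came at 3.31 h in series A, 2.85 h in series C and 17.09 h in series B. These hours belong to the fitted curve, and the highest arrays were those of 8 h in series A, 4 h in series C and 16 h in series B.

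Between 16 h and 4 h, LHCB4.2 was lower at 16 h by 1.92 on the log2 scale in series A and by 2.81 in series C, and higher by 1.84 in series B. With all arrays the mean difference was -0.96 ± 0.59 (SE, limma adjusted p = 1). No probe set was called in this comparison (0%) by limma. The 391 with an unadjusted p below 0.05 were fewer than the share of 0.05 expected if none changed. For series A and C alone LHCB4.2 fell by 2.36 (SE 0.31, limma adjusted p = 0.00163), in a comparison that called 1.96% of probe sets lower. The adjusted p was 0.00569 without the 4 h and 16 h arrays of series B, where 1.72% were called lower.

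Between 12 h and 0 h, the difference of LHCB4.2 was -0.86 in series A, -1.87 in series C and 0.03 in series B. For series A and C alone the gene fell by 1.37 (SE 0.31, limma adjusted p = 0.0172), where 4.85% of probe sets were called lower. With all arrays the difference gave no call (limma adjusted p = 0.434), where 5.44% were called lower, and none without the 4 h and 16 h arrays of series B (limma adjusted p = 0.118), where 6.69% were. Between 20 h and 8 h the 3 series gave -0.33, -0.45 and 0.79 for A, C and B, and no setting gave a call, where 1.45% of probe sets were called lower with all arrays. From 16 h to 20 h LHCB4.2 differed by 1.68 in series A, 1.78 in series C and -0.39 in series B. With all arrays this step was 1.02 ± 0.59 (SE, limma adjusted p = 1), and without the 4 h and 16 h arrays of series B the adjusted p was 0.135. It was 0.0628 for series A and C alone, where 0.202% of probe sets were called higher. With series as a block, a fit added after the data were seen, the step passed (1.73 ± 0.24, SE, limma adjusted p = 0.00634), where 0.914% were. Without the 4, 8, 12 and 16 h arrays of series B, also a setting added after the data were seen, it passed without a block. The step was then 1.745 ± 0.264 (SE, limma adjusted p = 0.00819), where 0.378% of probe sets were called higher.

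LHCB4.3 had a single low point at 8 h in series A and C. Its signal in series A was 950.2 at 0 h, 902.5 at 4 h, 404.8 at 8 h, 1388 at 12 h, 1634 at 16 h and 1328 at 20 h. In series C it was 777.8, 794.8, 369.2, 1088, 1006 and 1242. In both series the arrays of 12, 16 and 20 h were all above those of 0 and 4 h, and the 8 h array was the lowest. Series B gave 1188 at 0 h, 1577 at 4 h, 1270 at 8 h, 609.2 at 12 h, 1001 at 16 h and 1591 at 20 h, with its low point at the array labelled 12 h. The highest signal exceeded the lowest by 4.04 times in series A, 3.36 times in series C and 2.61 times in series B.

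The means of LHCB4.3 were 1387 ± 182 at 20 h, 1214 ± 364 at 16 h, 1092 ± 424 at 4 h, 1028 ± 393 at 12 h, 972 ± 206 at 0 h and 681 ± 510 at 8 h (SD, n = 3 arrays each). Neighbours in this order again differed by less than the larger of their SDs. With all arrays neither test of the course gave a call. The range of the time means was 1.26 on the log2 scale (limma F test, adjusted p = 0.479), and the cosine had an adjusted p of 0.212 (unadjusted 0.0487). Without the 4 h and 16 h arrays of series B, the cosine had a limma adjusted p of 0.0563 and the F test 0.312. With series as a block as well, the cosine passed in that setting (limma adjusted p = 0.045), with 26.1% of probe sets called. For series A and C alone the gene passed both. The range was then 1.73 (limma F test, adjusted p = 0.00391), and the cosine had a peak-to-trough difference of 1.34 and a fitted peak at 18.10 ± 0.96 h (SE, limma adjusted p = 0.0419). Leaving out the array labelled 8 h B alone was enough for the F test to pass (limma adjusted p = 0.0379, with 5.81% of probe sets called). Within single series the fitted peak came at 17.80 h in A, 18.46 h in C and 0.74 h in B.

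Between 20 h and 8 h, LHCB4.3 was higher at 20 h in each series, by 1.71 in A, 1.75 in C and 0.33 in B. With all arrays the difference was 1.26 ± 0.41 (SE, limma adjusted p = 0.117, unadjusted p = 0.00682), where 1.82% of probe sets were called higher. For series A and C alone it rose by 1.73 ± 0.24 (SE, limma adjusted p = 0.00212), where 2.43% were called higher. The limma adjusted p was 0.00817 without the array labelled 8 h B (1.31% called higher) and 0.0799 (3.02%) without the 4 h and 16 h arrays of series B. In the latter setting the difference passed with series as a block (1.26 ± 0.38, SE, limma adjusted p = 0.0471), where 6.11% were called higher.

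The steps into and out of the 8 h low point of LHCB4.3 were also called for series A and C alone. From 4 h to 8 h LHCB4.3 fell by 1.13 (SE 0.24, limma adjusted p = 0.0357 for series A and C alone), where 1.07% of probe sets were called lower. From 8 h to 12 h it rose by 1.67 ± 0.24 (SE, limma adjusted p = 0.0136), where 0.255% were called higher. Series B differed by -0.31 from 4 h to 8 h and by -1.06 from 8 h to 12 h. With all arrays these steps had limma adjusted p-values of 0.701 and 1, where 0.189% of probe sets were called lower and 0% higher. Without the 4 h and 16 h arrays of series B they were 0.803 and 1. The 8 h to 12 h comparison with all arrays gave 0 calls by limma. Its 265 probe sets at an unadjusted p below 0.05 were fewer than the share of 0.05 expected if none changed. Between 12 h and 0 h the differences were 0.55, 0.48 and -0.96 in series A, C and B, and between 16 h and 4 h 0.86, 0.34 and -0.66. Neither comparison gave a call in the settings above. With series as a block and series B left out, a fit added after the data were seen, both did (0.51 ± 0.14, limma adjusted p = 0.0211, and 0.60 ± 0.14, adjusted p = 0.0163, SE), with 19.6% and 11.5% of probe sets called.

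**Figure D2:**
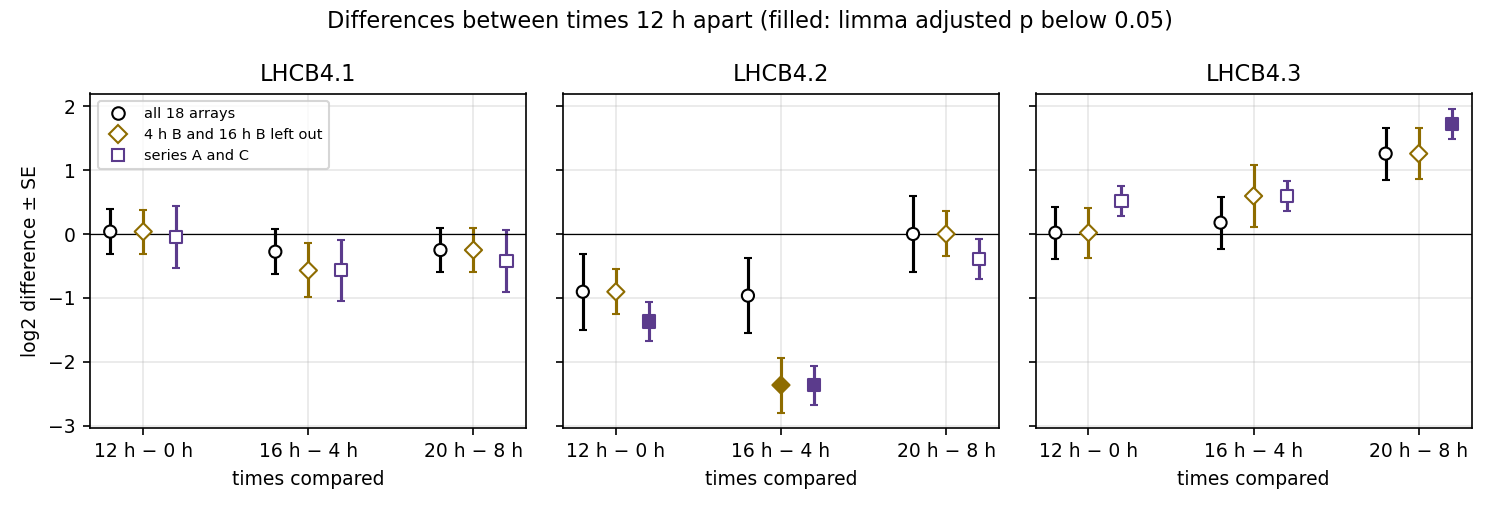
Log2 difference ± SE of each LHCB4 gene between times 12 h apart, with all 18 arrays (circles), without the 4 h and 16 h arrays of series B (diamonds) and for series A and C alone (squares); filled symbols have a limma adjusted p below 0.05. No symbol is filled with all arrays, and for series A and C LHCB4.2 falls between 4 and 16 h (-2.36) while LHCB4.3 rises between 8 and 20 h (1.73).

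On the log2 scale LHCB4.1 had the smallest range of signal of the LHCB4 genes within each series. Its signals were near the top of the arrays' range in A and B, and no test called it with all arrays. In series A its signal was 4347 at 0 h, 4643 at 4 h, 4667 at 8 h, 4577 at 12 h, 3339 at 16 h and 3720 at 20 h. Series B gave 4427, 3679, 4758, 5088, 4567 and 5115, and series C 7288, 7946, 8937, 6534, 5023 and 6209. The array of 8 h was the highest and that of 16 h the lowest in series A and C, while in series B they were those labelled 20 h and 4 h. All arrays of series C but that of 16 h lay above every array of series A and B. The highest signal exceeded the lowest by 1.4 times in series A, 1.39 times in B and 1.78 times in C.

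Averaged over the series, LHCB4.1 had 6121 ± 2439 at 8 h, 5423 ± 2238 at 4 h, 5400 ± 1015 at 12 h, 5354 ± 1675 at 0 h, 5015 ± 1248 at 20 h and 4310 ± 871 at 16 h (SD, n = 3 arrays each). No neighbours in that order differed by more than the larger of their SDs, but these SDs include the higher level of series C. From 12 h to 16 h the log2 differences within series A, B and C were -0.455, -0.156 and -0.38. From 16 h to 20 h they were 0.155, 0.164 and 0.306. Neither step was called by limma with all arrays. The range of the time means was 0.46 on the log2 scale with all arrays (limma F test, adjusted p = 1, unadjusted p = 0.855). It was 0.57 without the 4 h and 16 h arrays of series B (limma adjusted p = 0.945) and 0.66 for series A and C alone (0.966). The cosine had limma adjusted p-values of 0.808, 0.594 and 0.559 in these 3 settings. Between 16 h and 4 h the series gave -0.48, 0.31 and -0.66 for A, B and C. The mean difference was -0.28 ± 0.35 with all arrays, -0.57 ± 0.42 without the 4 h and 16 h arrays of series B and -0.57 ± 0.48 for series A and C alone (SE, limma adjusted p = 1, 0.671 and 0.737), none a call. LHCB4.1 was called only with a block, in fits chosen with the data in view. In the added fit of series A and C with series as a block, which takes out the higher level of series C, LHCB4.1 fell by 0.57 between 4 h and 16 h (SE 0.15, limma adjusted p = 0.032), where 5.44% of probe sets were called lower. Its cosine then had a peak-to-trough difference of 0.58 and a fitted peak at 5.50 ± 0.86 h (SE, limma adjusted p = 0.018), with 21.6% of probe sets called.

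The signal of LHCB4.1 lay near the top of the arrays' range in series A and B. It reached 78.5% to 99.5% of the highest signal on its array in series A, 79.9% to 96.0% in B and 38.2% to 80.1% in C. Between 1 and 25 probe sets were brighter on an array of series A or B, and between 9 and 48 on an array of series C. The highest signal on an array was 4253 to 5122 in series A, 4604 to 5725 in B and 11090 to 13157 in C. LHCB4.2 stood at 22.8% to 78.9% of it in series A, 24.4% to 76.8% in B and 6.32% to 49.5% in C, and LHCB4.3 at no more than 38.4% on any array. The log2 range within a series was larger in series C than in A for LHCB4.1 (0.83 against 0.48) and LHCB4.2 (2.81 against 2.01), but not for LHCB4.3 (1.75 against 2.01). The part of the upper end of the scale in these ranges, and in the differences from LHCB4.1 below, was not tested.

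**Figure D3:**
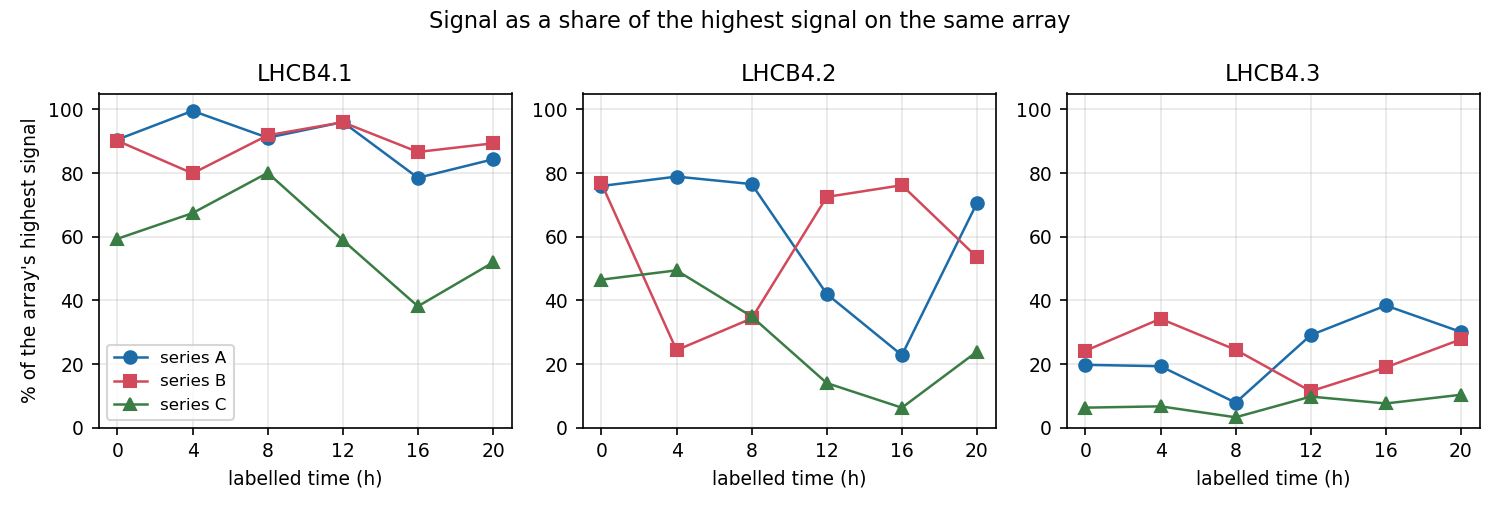
Signal of each LHCB4 gene as a percentage of the highest signal on the same array, against labelled time in h, with 1 line per series. LHCB4.1 stays at 78.5% or more in series A and 79.9% or more in series B, and falls to 38.2% at 16 h in series C.

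Whether the 3 genes ran different courses was tested on the log2 difference of 2 genes within each array, with times permuted within series in an exact test over 518400 arrangements. The 3 pairs were computed as 1 family. With all arrays no pair changed over time beyond the spread, with an adjusted p of 0.511 for each (unadjusted exact p = 0.439 for LHCB4.2 minus LHCB4.1, 0.511 for LHCB4.2 minus LHCB4.3 and 0.178 for LHCB4.3 minus LHCB4.1). For series A and C alone all 3 pairs passed the exact permutation test (720 arrangements, smallest possible p 0.00139). The adjusted p was 0.0222 for LHCB4.2 minus LHCB4.1 and 0.00417 for each of the other pairs. Without the 4 h and 16 h arrays of series B the exact permutation test gave adjusted p-values of 0.101, 0.132 and 0.132.

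The difference with the widest range in each series was that of LHCB4.2 and LHCB4.3. Against its mean over the series it was 1.90 at 8 h and -2.13 at 16 h for series A and 1.63 and -2.04 for series C. For series B it was 1.44 at the array labelled 12 h and -1.70 at that labelled 4 h. LHCB4.2 minus LHCB4.1 was lowest at 16 h in series A (-1.10) and C (-1.30) and at 4 h in series B (-0.93). LHCB4.3 minus LHCB4.1 was lowest at 8 h in series A (-1.47) and C (-1.53) and at 12 h in series B (-1.07).

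**Figure D4:**
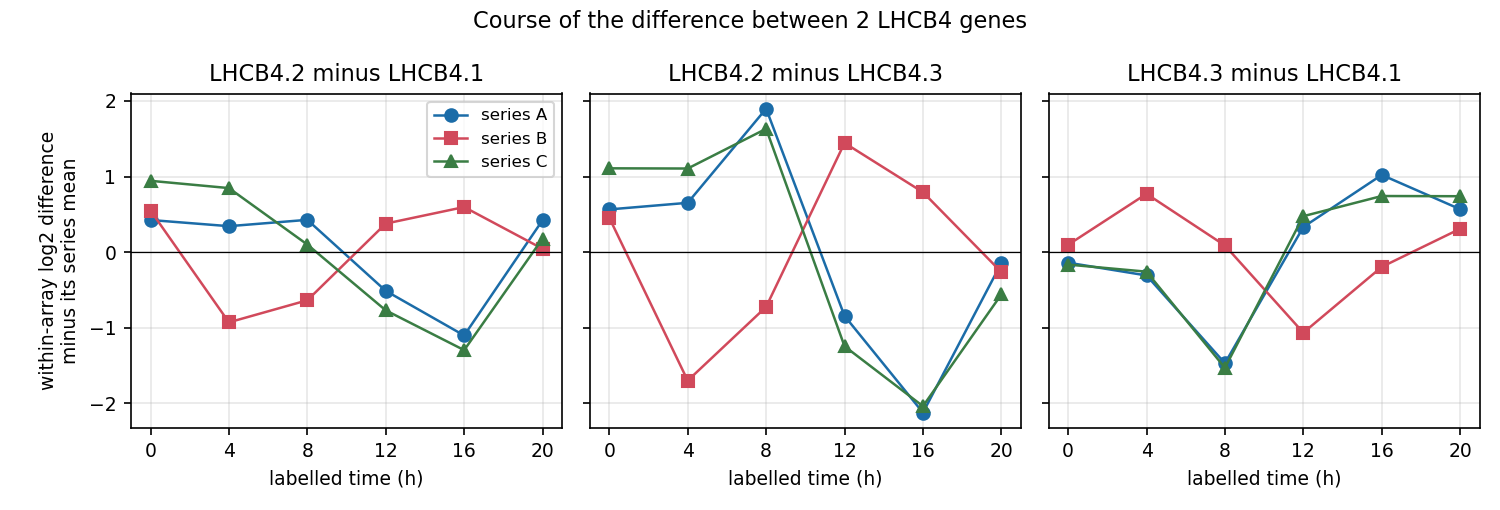
Log2 difference of 2 LHCB4 genes on the same array, less its mean over the series, against labelled time in h, with 1 line per series. Series A and C are lowest at the same time in each panel. For LHCB4.2 minus LHCB4.1 they lie apart at 0 h (0.42 and 0.94) and 4 h (0.34 and 0.85). LHCB4.2 minus LHCB4.3 is highest at 8 h (1.90 and 1.63) and lowest at 16 h (-2.13 and -2.04) in series A and C. In series B it is highest at 12 h (1.44) and lowest at 4 h (-1.70).

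Array by array, and whatever the time label, the signals of LHCB4.2 and LHCB4.3 were negatively correlated in each series. Pearson's r of their log2 signals was -0.69 in series A, -0.59 in B and -0.44 in C (n = 6 arrays each, exact permutation p = 0.14, 0.21 and 0.406). Spearman's rho was -1 in series A (exact permutation p = 0.00278), -0.77 in series B (0.103) and -0.54 in series C (0.297). Over 18 arrays with series means removed, r was -0.55 (permutation p = 0.0269, adjusted 0.108 over 12 correlations) and rho -0.70 (permutation p = 0.00228, adjusted 0.0167). Without the 2 arrays of the most extreme LHCB4.2 signal, r was -0.51 and rho -0.67. The arrays of a series are successive times of 1 course and share their culture, so they are not independent samples.

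LHCB4.1 and LHCB4.2 were positively correlated, with r of 0.72, 0.68 and 0.82 in series A, B and C (n = 6, exact permutation p = 0.0764, 0.122 and 0.0444) and rho of 0.83, 0.26 and 0.77 (0.0583, 0.658 and 0.103). Over 18 arrays r was 0.77 (permutation p = 0.00141, adjusted 0.0169) and rho 0.62 (permutation p = 0.0157, adjusted 0.0627), and without the 2 most extreme arrays r was 0.57. For LHCB4.3 and LHCB4.1, r was -0.65, -0.45 and -0.77 in the 3 series (exact permutation p = 0.143, 0.365 and 0.0736) and rho -0.83, 0.03 and -0.77 (0.0583, 1 and 0.103). Over 18 arrays r was -0.64 (permutation p = 0.00834, adjusted 0.05) and rho -0.55 (permutation p = 0.0259, adjusted 0.0776), and without the 2 most extreme arrays r was -0.54. Over 18 arrays the rank correlation thus passed only for LHCB4.2 with LHCB4.3, and Pearson's r only for LHCB4.1 with LHCB4.2.

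The genes most like each LHCB4 gene were ranked by Pearson's r of log2 signals over the 18 arrays, among 5997 probe sets with 1 named gene and at least the median level. For LHCB4.1 these were PSAE-1 (r = 0.93) and PSAN (0.93), both subunits of photosystem I, PSBW (0.93), a small subunit of photosystem II, AT5G49060 (0.90) and AT1G67430 (0.89). The higher signals of series C enter these values. With series means removed, r was 0.82 for PSAE-1, 0.86 for PSAN, 0.79 for PSBW, 0.76 for AT5G49060 and 0.69 for AT1G67430. AT4G29260 (-0.92) and AT4G32930 (-0.91) ran most opposite to LHCB4.1, with r of -0.77 and -0.70 once series means were removed.

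For LHCB4.2 the most alike were AT1G21500 (0.91), AT3G01060 (0.91), AT2G42220 (0.91), AT5G57345 (0.90) and AT4G36050 (0.90). With series means removed these 5 had r of 0.92, 0.91, 0.91, 0.93 and 0.91. The most opposite were AT5G27430 (-0.86) and AT5G58030 (-0.85). Without the 4 h and 16 h arrays of series B, AT1G21500 and AT3G01060 remained the first and second of the ranking, with r of 0.90 and 0.90.

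For LHCB4.3 they were AT3G26590 (0.89), AT4G11410 (0.89), AT5G05250 (0.88), AT1G68570 (0.87), which is NPF3.1 of the nitrate and peptide transporter family, and scpl46 (0.87), a serine carboxypeptidase-like protein. AT3G06950 (-0.86) and AT1G22570 (-0.86) were the most opposite. AT3G26590 and AT4G11410 were also first and second without the 4 h and 16 h arrays of series B, with r of 0.92 and 0.92. None of the genes named for likeness passed the F test with all arrays (limma adjusted p from 0.211 to 1). They were chosen by their correlation with LHCB4 genes that did not pass it either, so this is no separate result.

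Few other photosynthesis genes had a named probe set. The 3 LHCB4 genes were the only ones of a list of 21 antenna genes with a named probe set of their own, and whether unnamed probe sets or those of several genes cover the others was not examined. Genes without a named probe set are not analysed here, and those with one are called measured. Of the listed nuclear genes, 3 of 14 for photosystem II, 2 of 13 for photosystem I, 1 of 8 for electron transport and ATP synthase and 1 of 18 for antenna insertion and regulation were measured. With all arrays 0 of these 7 passed the F test or the cosine test (limma adjusted p from 0.847 to 1 in the F test, and 0 also at an unadjusted p below 0.05 in either test), against 6.53% and 12.5% of all probe sets. Their range of time means had a median of 0.36 for photosystem II and 0.36 for photosystem I, against 0.65 over all probe sets and 1.26 for the LHCB4 genes. That of the LHCB4 genes is the value of LHCB4.3, with 0.46 for LHCB4.1 and 1.53 for LHCB4.2. The measured photosystem genes had signals of 1637 or more, against array medians of 32.2 to 39.8 over all probe sets. The part of signal level in these ranges was not tested.

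For series A and C alone, 2 of the 3 photosystem II genes passed the cosine test, against 13.3% of probe sets. PSBY, a small membrane subunit, had a peak-to-trough difference of 0.74 with a fitted peak at 4.55 h (limma adjusted p = 0.0491), and PSB27, which acts in photosystem II assembly and repair, one of 0.67 at 4.68 h (adjusted p = 0.0425). PSBW (adjusted p = 0.631), PSAE-1 (0.926) and PSAN (0.279) gave no call there. PSAN had a peak-to-trough difference of 0.76 at 4.50 h, beside 0.58 at 5.50 h for LHCB4.1. Without the 4 h and 16 h arrays of series B, neither PSBY nor PSB27 passed (cosine test, limma adjusted p = 0.0562 and 0.106).

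Of 5 measured chlorophyll synthesis genes out of 15, PORB, a protochlorophyllide oxidoreductase, alone passed the F test with all arrays (range 2.06, limma adjusted p = 0.00782), against 6.53% of all probe sets. GSA1, which makes the precursor 5-aminolevulinate, passed the cosine test for series A and C alone (peak-to-trough difference 0.47, limma adjusted p = 0.0383) and without the 4 h and 16 h arrays of series B (0.41, adjusted p = 0.0277), tests that called 13.3% and 17.7% of probe sets. HEMB1, CHLI2 and CHLM passed neither test in these 3 settings. LIL3.2, an antenna-like protein that anchors chlorophyll synthesis enzymes, passed the cosine test with all arrays (0.70, limma adjusted p = 0.0319, against 12.5% of probe sets) and without the 4 h and 16 h arrays of series B (0.0279), and not for series A and C alone (0.0995). LIL3.1 gave no call, and neither did SBPASE, PRK and RCA, the 3 of 7 Calvin-Benson genes measured. None of the 7 listed regulators of photosynthesis genes and none of the flower and seed markers had a named probe set.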

How the data were processed

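The authors' deposited values are signal intensities, 1 per probe set and array, on a linear scale up to 13157. The submitters' processing notes name MAS5, without a version. The arrays had been scaled before deposit, with a mean of 98.9 to 99.4 once 2% of values at each end are trimmed. Detection calls were not used here, and the precision is limited by the 3 arrays per time.

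The 64 control probe sets were left out. Values were analysed as log2(value + 1.1), with 1.1 the 10th percentile of all values, and were kept as deposited because array medians spanned 0.30. All 18 arrays entered 1 model in limma 3.58.1 (R 4.3.3), with eBayes and an intensity trend. This main model had no term for series, so differences of level between the series entered its error. P-values were adjusted over all 22746 probe sets by the Benjamini-Hochberg method. The tests were an F test over 6 time means, an F test of a 24 h cosine and 9 contrasts of 2 times, called at an adjusted p below 0.05. The fits and the permutation test were tested on simulated data.

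Genes were named through the platform's annotation and a RefSeq table of TAIR10.1, which gave 13513 probe sets 1 gene, 503 several and 8730 none here. By the naming rule, members of the lists that passed a test were named, with 5 most alike and 2 most opposite genes per LHCB4 gene. The genes and lists were chosen with earlier results of these data known. No sequence is printed, as none was used here.

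The replicate letters mark courses grown separately and thus pair the arrays. Deviations from the time means correlated by 0.174, 0.161 and 0.328 on average within series A, B and C, the lowest being -0.277 in series B, and by -0.109 between arrays of different series and times. Alternatives were other scalings, offsets, a filter on dim probe sets, no trend, series as a block, and leaving out arrays or series.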

Additional observations from a re-analysis of the deposited data

How the results depend on the processing

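Alternatives that keep every array (quantile normalization, equal array medians, other offsets, leaving out dim probe sets, no variance trend, a replicate block) changed no call of an LHCB4 gene. With the replicate block the adjusted F-test p was 0.52 for LHCB4.1, 0.572 for LHCB4.2 and 0.311 for LHCB4.3. Differences close to 0 changed sign, that of LHCB4.2 between 20 h and 8 h with equal medians (-0.00765) and that of LHCB4.3 between 12 h and 0 h with quantile normalization (-0.00951). Calls of LHCB4 genes arose only where arrays of series B were left out, and the cause was not tested.

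Without the 4 h and 16 h arrays of series B, LHCB4.2 gave an F-test p of 0.0085 (0.00893 with the replicate block), a cosine p of 0.00765 (0.00912) and a difference of -2.36 (-2.36) between 16 h and 4 h, all adjusted, and the block added calls of LHCB4.3 in the cosine (0.045) and between 20 h and 8 h (1.26). The settings that follow were chosen with the data in view. Without the 4, 8, 12 and 16 h arrays of series B, the values without and with the replicate block were 0.000284 and 4.57e-05 (F), 0.000671 and 0.00121 (cosine), -1.28 and -1.31 (12 h minus 0 h), -2.36 and -2.36 (16 h minus 4 h) and -0.38 and -0.34 (20 h minus 8 h, sign reversed, no call) for LHCB4.2. For LHCB4.3 they were 0.00108 and 6.75e-06 (F), 0.0123 and 0.0171 (cosine) and 1.83 and 1.70 (20 h minus 8 h), and the block added 0.49 (12 h minus 0 h) and 0.60 (16 h minus 4 h). Steps between neighbouring times were also called there without the block. These were 20 h minus 16 h of LHCB4.2 (1.745), and 8 h minus 4 h (-1.129) and 12 h minus 8 h (1.666) of LHCB4.3. By limma 0.378% of probe sets were called higher, 1.32% lower and 0.418% higher in these comparisons. For LHCB4.1 the block gave 0.0447 (cosine) and -0.57 (16 h minus 4 h). The pair tests, by exact permutation with adjusted p, gave 0.00491, 0.00139 and 0.00424 for LHCB4.2 minus LHCB4.1, LHCB4.2 minus LHCB4.3 and LHCB4.3 minus LHCB4.1. Without series B and with the replicate block, LHCB4.1 gave 0.018 (cosine), -0.57 (16 h minus 4 h) and -0.0415 (12 h minus 0 h, sign reversed, no call). LHCB4.2 gave 0.000142 (F), 0.00121 (cosine), -1.37 (12 h minus 0 h), -2.36 (16 h minus 4 h) and -0.39 (20 h minus 8 h, no call), and LHCB4.3 2.82e-05 (F), 0.0258 (cosine), 0.51, 0.60 and 1.73 (the same 3 comparisons).

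Leaving out 1 array or 1 series, the adjusted F-test p ranged from 0.00232 to 1 for LHCB4.2 and from 0.00391 to 1 for LHCB4.3, and the cosine p from 0.00176 to 0.944 and from 0.0419 to 0.723, each lowest without series B. Differences between 12 h and 0 h ranged from -0.11 to 0.28 for LHCB4.1, -1.37 to -0.42 for LHCB4.2 and -0.24 to 0.51 for LHCB4.3. Those between 16 h and 4 h ranged from -0.57 to 0.0393, -2.36 to -0.0419 and -0.16 to 0.60, and those between 20 h and 8 h from -0.43 to 0.0583, -0.39 to 0.23 and 0.94 to 1.83. Calls came without series B, without the array labelled 4 h B (cosine of LHCB4.2, adjusted p = 0.0497 by limma) and without that labelled 8 h B (LHCB4.3). Pair tests by exact permutation ranged from 0.0222, 0.00417 and 0.00417 without series B to 0.932, 0.932 and 0.932 without series A.

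Counts over all probe sets by limma moved as well. In the F test, 1486 became 2565 with the replicate block, 2734 (4780 with the block) without the 4 h and 16 h arrays of series B, 2910 (5471) without its 4, 8, 12 and 16 h arrays and 5215 without series B with the block. The cosine count of 2844 became 5933, 5067 and 4922 in these 3 block fits. Between 12 h and 0 h, 2473 became 3888 with the block alone and 4859, 4785 and 4449 in the same 3. Between 16 h and 4 h, 0 became 749 (1791), 1005 (2675) and 2611. Between 20 h and 8 h, 742 became 447 without the variance trend, 1560 with the block alone and 1283 (2654), 1450 (3140) and 2873. Leaving out 1 array or series, the ranges were 172 to 2087 (F), 738 to 3476 (cosine), 557 to 2729 (12 h minus 0 h), 0 to 843 (16 h minus 4 h) and 47 to 965 (20 h minus 8 h). With 1 array per time in a series and 3 per time in all, differences between single times within a series have no replicate.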
